A study of Mus musculus with 10 samples.

Results

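The genes of the mitochondrial genome (mtDNA) were taken as the rows of the count table whose Ensembl identifier has a mouse symbol starting with mt- in GENCODE M21 of GRCm38, all of which lie on chromosome M. The annotation holds 37 such genes and 35 of them had a row, among 49315 rows in all: 13 protein genes and 22 tRNA genes. The 2 ribosomal RNA genes, mt-Rnr1 and mt-Rnr2, were not analysed here, since neither had a row, and 0 of the 354 nuclear genes annotated as rRNA had one either. RNA came from the gastrocnemius, a mixed calf muscle, of 10 male mice on the C57BL6J background, and each had been exposed to cigarette smoke for 16 weeks (5 days per week, 2 sessions of 1 h per day, 220 ± 80 mg/m3) and was harvested, by the labels, 72 h after the last session, which the study's text gives as the end of a range. The 5 AHRfl mice carried floxed alleles of the aryl hydrocarbon receptor (AHR) without Cre, and the 5 AHRmko mice carried the floxed alleles with HSA-MCM, a MerCreMer recombinase driven by the human ACTA1 promoter and induced by tamoxifen, so that deletion is directed to muscle fibres and not to other cells of the tissue. The genotypes were littermates, by the study's text, which dates the start of smoke in both from the delivery of tamoxifen and calls the mice aged, with no age given in the sources used here, and no air-exposed mice were among the libraries. The libraries fell into 2 sets by Xist, an RNA made from the inactive X chromosome of females: 5 of these male mice had between 44 and 75 counts of it (AHRfl mice 11, 15 and 33 and AHRmko mice 9 and 22) and the other 5 had between 0 and 3, while the Y-linked Ddx3y had at least 1852 counts in every mouse. Results were therefore also computed with this split. The comparison asks whether loss of AHR in muscle changes RNA from mtDNA under smoke.

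Mitochondrial DNA is a small circular genome that encodes core subunits of 4 of the 5 complexes of oxidative phosphorylation (OXPHOS), together with the rRNAs and tRNAs that translate them. Each strand is transcribed as a long precursor, which is cut at the tRNAs that lie between the protein genes. Most of the released mRNAs receive short poly(A) tails. Skeletal muscle fibres are rich in mitochondria, more so in oxidative than in glycolytic fibres, and the genome leaves copies of itself in nuclear chromosomes. The 13 protein genes comprise 7 of complex I, which oxidizes NADH (mt-Nd1 to mt-Nd6 and mt-Nd4l), 1 of complex III (mt-Cytb, cytochrome b), 3 of complex IV, the cytochrome c oxidase (mt-Co1 to mt-Co3), and 2 of complex V, the ATP synthase (mt-Atp6 and mt-Atp8). On the minus strand lie mt-Nd6 and 8 of the tRNA genes, and the other 12 protein genes and 14 tRNA genes lie on the plus strand.

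Only reads with a unique place in the genome were counted, so the sequences that the nucleus shares with mtDNA were looked up before the levels were compared. The mtDNA transcripts were aligned to all other GENCODE M21 transcripts, and 16 nuclear genes matched an mtDNA gene at an identity of at least 90% over at least 50% of their length, of which 15 had a row. Of these, 7 lay side by side on the minus strand of chromosome 1, from 24611535 to 24616197, in the same order as on mtDNA, and together they matched chrM:6390-11042, a span of 4653 bases. They are unprocessed pseudogenes, and 5 of the 7 were identical to mtDNA over all aligned bases. The following 120 bases show what such a copy looks like. They are bases 172 to 291 of mt-Co2 (chrM:7184-7303, plus strand), of its copy on chromosome 1, Gm28661 (chr1:24615275-24615394, minus strand), and of a second, more diverged copy on chromosome 2, Gm13341 (chr2:22587672-22587791, minus strand), all in GRCm38, with capitals at bases that differ from mt-Co2.
mt-Co2: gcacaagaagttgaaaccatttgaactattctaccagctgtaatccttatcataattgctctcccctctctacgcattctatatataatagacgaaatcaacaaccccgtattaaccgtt
Gm28661: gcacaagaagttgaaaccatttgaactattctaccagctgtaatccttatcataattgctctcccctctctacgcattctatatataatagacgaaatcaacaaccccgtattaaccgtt
Gm13341: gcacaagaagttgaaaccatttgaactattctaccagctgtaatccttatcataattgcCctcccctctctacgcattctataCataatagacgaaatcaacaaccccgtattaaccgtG
The copy on chromosome 1 had 0 differences in this stretch and that on chromosome 2 had 3.

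Among the protein genes that lie wholly within the copied span, mt-Nd3 was the 1 whose annotated copy on chromosome 1 differed from it (chrM:9459-9806). Its start and that of its copy Gm28438 (chr1:24612775-24613119, minus strand) are given with the differing base in capitals, which is T3C counted from the first base of the gene.
mt-Nd3: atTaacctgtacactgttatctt
Gm28438: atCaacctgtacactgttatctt
Also within the span, the genes of complex V overlap by 43 bases on the same strand (chrM:7927-7969), so that a read from this stretch belongs to mt-Atp8 and mt-Atp6 alike.
mt-Atp8/mt-Atp6 overlap: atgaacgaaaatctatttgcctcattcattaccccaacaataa

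The libraries were made from poly(A)-selected RNA, and for part of the mtDNA mRNAs the tail completes the stop codon. The lengths of mt-Co3, mt-Nd4 and mt-Cytb leave 1 base over a multiple of 3, and these genes end in T, the base that a tail extends to TAA, whereas mt-Co1 ends in a complete stop codon. Their last 24 bases are shown with the stop, or the part of it that mtDNA encodes, in capitals (chrM:6849-6872, chrM:9367-9390, chrM:11521-11544 and chrM:15265-15288, plus strand, GRCm38).
mt-Co1: ccaacctatgtaaaagtaaaaTAA
mt-Co3: tctccatttattgatgaggatctT
mt-Nd4: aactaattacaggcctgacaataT
mt-Cytb: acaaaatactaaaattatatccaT

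About 10% of each library was counted on mtDNA genes, and the share did not separate the genotypes. It was 10.4, 7.34, 9.75, 11.2 and 10.9% of all counts in AHRfl mice 11, 12, 13, 15 and 33, and 11.5, 10.6, 9.73, 9.71 and 8.35% in AHRmko mice 8, 9, 19, 22 and 34. The lowest share was in AHRfl mouse 12 and the highest in AHRmko mouse 8, and the genotypes overlapped over most of their range. The means were 9.93 ± 1.55% in AHRfl and 9.97 ± 1.17% in AHRmko muscle (SD, n = 5 each), a difference of 0.0432 percentage points that is far smaller than either SD. Nearly all of these counts belonged to protein genes (9.87 ± 1.54% and 9.91 ± 1.16% of all counts), and tRNA genes held 0.0581 ± 0.0115% in AHRfl and 0.0623 ± 0.0109% in AHRmko. In bulk muscle, fewer mitochondria, fewer fibres that are rich in them and less RNA per mitochondrion cannot be told apart. Total counts per mouse were between 30393035 and 37954388, and the mtDNA share of each library is a part of that total.

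**Figure D1:**
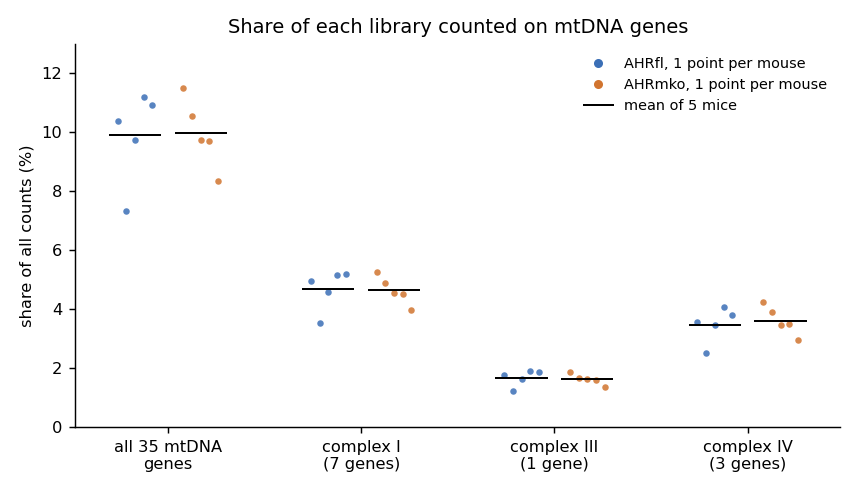
The percentage of all counts of a library (vertical axis) that fell on the 35 mtDNA genes and on those of complexes I, III and IV is plotted, with a point for each mouse and a black line at the mean of 5 mice. AHRfl mouse 12 is the low point of its group in each set (7.34% of all counts for the 35 genes), and the points of the genotypes overlap.

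By complex, the genes of complex I held 4.69 ± 0.688% of all counts in AHRfl and 4.65 ± 0.487% in AHRmko muscle, mt-Cytb of complex III held 1.69 ± 0.277% and 1.64 ± 0.191%, and those of complex IV held 3.49 ± 0.585% and 3.62 ± 0.491% (SD, n = 5 each). The genes of complex V held 0.00139 ± 0.000307% and 0.00141 ± 0.000184%, by far the smallest share. Both of them lie wholly inside the span copied to chromosome 1, as do mt-Co2 and mt-Co3 of complex IV. Of the mtDNA counts of all mice, mt-Co1 held 35.7%, mt-Co3 0.0146% and mt-Co2 0.00782%, so the complex IV share was nearly all mt-Co1. Only unique reads were counted, so these are shares of counts and not levels of each complex. Within the mtDNA counts the proportions were steadier than the total. Complex I took between 46.0 and 48.1% of the mtDNA counts in AHRfl and between 45.9 and 47.6% in AHRmko mice. Complex III took 16.8 to 17.2% and 15.8 to 17.0%, and complex IV 34.4 to 36.3% and 35.3 to 37.1%, so the genotypes overlapped in each. The library share varied by more than these proportions, with the highest mouse at 1.57 times the lowest.

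Per length, mt-Co1 (ENSMUSG00000064351), the catalytic subunit of cytochrome c oxidase, had the highest level of the 7 protein genes that lie at least in part outside the span copied to chromosome 1. Levels are given here as CPM per kb, the CPM (counts scaled by the TMM-normalized library size) divided by the annotated gene length. This scale takes every base of a gene as one that a counted read can come from. For mt-Co1, mt-Nd4 and most protein genes wholly inside the copied span, sequence is shared with nuclear transcripts, as described below. The effect of this sharing on their counts was not tested. The level of mt-Co1 was 22904 ± 2723 CPM per kb over the 10 mice (SD), followed by mt-Nd1 at 18728 ± 1126, mt-Cytb at 14495 ± 1552, mt-Nd2 at 10527 ± 1003 and mt-Nd6 at 5723 ± 489. Next came mt-Nd4 at 5279 ± 506 and mt-Nd5 at 4062 ± 822 CPM per kb. Each of these genes was above the next in the order in 10 of 10 mice. The other 6 genes formed a group of their own far below, led by mt-Nd3 at 125.5 ± 23.5 CPM per kb. In it, mt-Nd4l had 33.7 ± 10.7, mt-Atp8 18.6 ± 3.61, mt-Co3 18.5 ± 2.48, mt-Atp6 14.9 ± 2.22 and mt-Co2 11.4 ± 1.41 CPM per kb. In this lower group each gene was again above the next in 10 of 10 mice, except that mt-Atp8 was above mt-Co3 in only 5 of 10, so the order of these 2 was not fixed.

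The 6 genes of the lower group were exactly the 6 protein genes that lie wholly inside the span copied to chromosome 1. They had between 84 and 2381 counts in a mouse, whereas every gene outside or partly inside the span had at least 83833. Per length, the lowest of the upper group was 32.4 times the highest of the lower group. The contrast is sharpest between subunits of the same enzyme, since mt-Co1 stood above mt-Co2 by 2028-fold on average per kb, and by between 1610- and 2363-fold in single mice. The 6 genes together held 0.0884 ± 0.00556% of the mtDNA counts in AHRfl and 0.0922 ± 0.0106% in AHRmko muscle (SD, n = 5 each), although their products are core subunits of complexes I, IV and V.

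**Figure D2:**
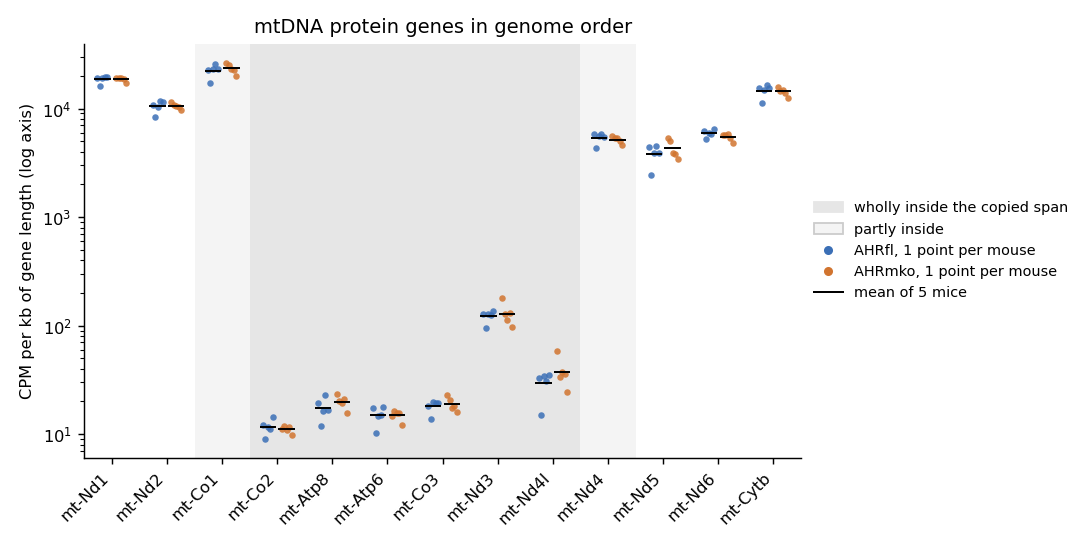
The level of each mtDNA protein gene in CPM per kb of gene length (vertical axis, log scale) is plotted in genome order, with a point for each mouse and a black line at the mean of 5 mice. Dark grey marks the 6 genes wholly inside the span copied to chromosome 1, whose means lie between 11.4 and 125.5 CPM per kb, and light grey the 2 partly inside; those outside or partly inside lie at 4062 CPM per kb or more.

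The counts of the lower group were small in every mouse. For mt-Co2 (ENSMUSG00000064354), which receives electrons from cytochrome c, they were 293, 215, 282, 264 and 317 in AHRfl mice 11, 12, 13, 15 and 33, and 291, 298, 261, 305 and 225 in AHRmko mice 8, 9, 19, 22 and 34. The same mice held between 920771 and 1553401 counts of mt-Co1. For mt-Nd3 (ENSMUSG00000064360), a small membrane subunit of complex I, the counts were 1564, 1149, 1578, 1513 and 1520 in AHRfl and 2381, 1628, 1364, 1728 and 1126 in AHRmko mice. In these raw counts AHRmko mouse 8 was the highest and AHRmko mouse 34 the lowest. For mt-Nd4l (ENSMUSG00000065947), another small subunit of complex I, they were 344, 155, 363, 319 and 337 in AHRfl and 654, 364, 385, 408 and 244 in AHRmko mice, with AHRfl mouse 12 the lowest and AHRmko mouse 8 the highest.

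The share of each gene found in annotated nuclear transcripts was measured with windows of 150 bases, the read length stated for the study. The windows stand for single reads, whereas the libraries were paired-end. Of the windows of mt-Co2, 99.4% also occurred in an annotated nuclear transcript, as did 99.4% of those of mt-Atp6, 99.8% of mt-Co3, 97.0% of mt-Nd3 and 98.0% of mt-Nd4l. For mt-Atp8 the share was 0, since the stretch of chromosome 1 between Gm10925 and Gm28661, where its copy would lie, is not an annotated transcript. The 2 genes partly inside the span had intermediate shares, 59.2% for mt-Nd4, of which 63.6% of the bases lie inside, and 23.6% for mt-Co1, with 31.3% inside. For mt-Nd1, mt-Nd2, mt-Nd5, mt-Nd6 and mt-Cytb the share was 0%. Diverged copies left the windows free: mt-Nd2 has a copy on chromosome 2 (Gm13339) at 96.7% identity over 510 bases, and none of its windows was shared. The 5 genes with 97.0% or more of their windows shared were all in the lower group. The part of shared sequence in the low counts was not tested, since the reads were not analysed here.

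Dividing by the windows that touch no other mtDNA gene and occur in no nuclear transcript, in place of the gene length, moved mt-Nd4 from 5279 to 14490 ± 1390.2 CPM per kb, and so from the sixth to the fourth place. On that scale the order was mt-Co1 at 33196 ± 3947, mt-Nd1 at 22237 ± 1337, mt-Cytb at 16666 ± 1785, mt-Nd4, mt-Nd2 at 12319 ± 1174, mt-Nd6 at 8344 ± 713 and mt-Nd5 at 4460.4 ± 903 CPM per kb (SD, 10 mice). Each was above the next in 10 of 10 mice. The 6 genes inside the span had at most 12 such windows and were given no level on this scale.

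The copies themselves held few counts. The 3 with the most were Gm10925, the copy of mt-Atp6, with between 338 and 522 counts in a mouse, Gm29216, the copy of the end of mt-Co1, with 202 to 628, and Gm28437, the copy of mt-Co3, with 228 to 437. Of the 5 genes whose copy on chromosome 1 is identical over all aligned bases, 3 had counts close to those of the copy: the mean count of mt-Co2 was 0.812 times, that of mt-Atp6 0.827 times and that of mt-Co3 1.44 times that of its copy. The ratio was 6.64 for mt-Nd4l and 1182 for mt-Nd4, which reaches beyond the span. It was 28.1 for mt-Nd3, the gene whose copy carries T3C. All 15 copies together held 0.00618 ± 0.000957% of all counts in AHRfl and 0.00628 ± 0.00114% in AHRmko muscle (SD, n = 5 each), so that adding them to the mtDNA rows left the share at 9.93 and 9.98%. Of the 10 copies with enough counts to be tested, none had an adjusted p under 0.05 between the genotypes (lowest 0.819, edgeR). In a pair of identical copies the gene from which a read came cannot be told apart.

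**Figure D3:**
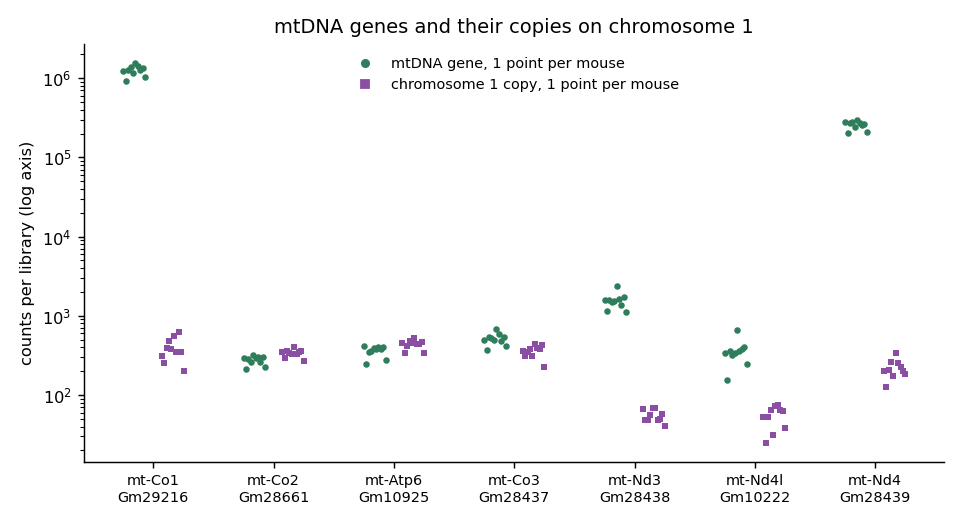
Counts per library (vertical axis, log scale) of the 7 mtDNA protein genes with a copy on chromosome 1 (circles) and of that copy (squares) are plotted, with a point for each of 10 mice. The genes wholly inside the copied span lie between 155 and 2381 counts, those of mt-Co2, mt-Atp6 and mt-Co3 close to their copies, whereas mt-Co1 and mt-Nd4, which reach beyond it, lie at 204769 counts or more.

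Of the 22 tRNA genes, the 4 with the highest mean counts were mt-Tn (asparagine), mt-Tp (proline), mt-Tl1 (leucine, codons UUR) and mt-Te (glutamate). They are shown 5′ to 3′ as annotated, with the anticodon in capitals (chrM:5089-5159, minus strand, chrM:15356-15422, minus strand, chrM:2676-2750, plus strand, and chrM:14071-14139, minus strand, GRCm38).
mt-Tn: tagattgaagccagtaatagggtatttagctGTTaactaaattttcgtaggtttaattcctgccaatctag
mt-Tp: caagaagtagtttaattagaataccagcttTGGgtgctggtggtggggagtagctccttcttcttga
mt-Tl1: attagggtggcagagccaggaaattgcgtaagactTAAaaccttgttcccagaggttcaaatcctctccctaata
mt-Te: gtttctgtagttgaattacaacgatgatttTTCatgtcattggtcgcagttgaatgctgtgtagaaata
These lengths of 67 to 75 bases are shorter than the 150-base reads, so a read counted for a tRNA gene either came from a shorter fragment or reached into the sequence beside it. No more than 75 bases touch only mt-Tl1. For mt-Tn and mt-Tc (cysteine), between which the origin of light-strand replication lies, the longest such stretch was 105 and 100 bases.

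Minus-strand genes held most of the tRNA counts, 78.1 ± 1.27% in AHRfl and 75.9 ± 3.28% in AHRmko muscle (SD, n = 5 each), although they are 8 of the 22. Whether the libraries were stranded is not given in the sources used here, so the counts of these genes and of mt-Nd6 may include reads from the opposite strand. The lowest share was 70.6% in AHRmko mouse 8 and the highest 80.0% in AHRfl mouse 11, and the genotypes overlapped. The level of mt-Tn was 145, 197, 145, 202 and 231 CPM in AHRfl mice 11, 12, 13, 15 and 33, and 284, 194, 190, 226 and 241 CPM in AHRmko mice 8, 9, 19, 22 and 34. AHRmko mouse 8 was the highest, and 2 AHRfl mice were below all others. The level of mt-Tp was 114, 77.1, 104, 149 and 108 CPM in AHRfl and 91.8, 112, 73.5, 98.0 and 91.5 CPM in AHRmko mice and the ranges overlapped. The level of mt-Tl1 was 61.1, 92.7, 73.9, 94.1 and 110 CPM in AHRfl and 161, 75.7, 77.3, 117 and 125 CPM in AHRmko mice, with AHRmko mouse 8 again the highest.

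At the other end, 3 tRNA genes had too few counts to be tested: mt-Td (aspartate) had 0 counts in all mice, mt-Tk (lysine) 0 or 1 and mt-Ts1 (serine, codons UCN) 0 to 7. These 3 lie inside the copied span, as do mt-Tg (glycine) and mt-Tr (arginine), and none of the 5 had more than 91 counts in a mouse. The remaining plus-strand tRNA genes, apart from mt-Tl1, had mean levels of at most 12.1 CPM in either genotype. On the minus strand mt-Tc, mt-Ta (alanine) and mt-Ty (tyrosine) had 48.1 ± 15.5, 29.1 ± 6.58 and 13.6 ± 3.76 CPM in AHRfl muscle (SD, n = 5), and 50.2 ± 6.66, 30.7 ± 4.38 and 15.1 ± 4.05 CPM in AHRmko. Poly(A) selection does not aim at tRNAs, so these counts are not levels of mature tRNA.

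**Figure D4:**
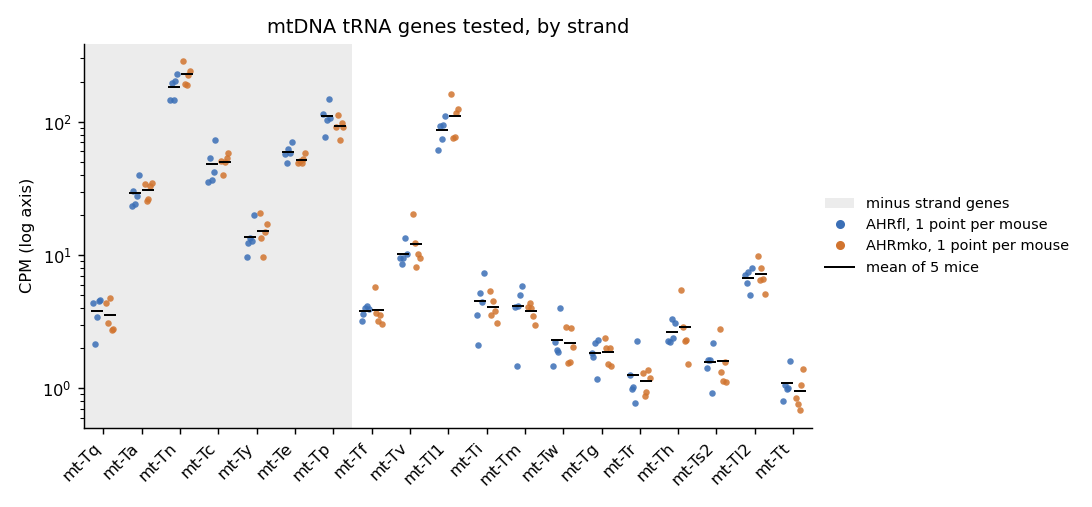
The level in CPM (vertical axis, log scale) of the 19 tRNA genes tested is plotted, minus-strand genes on grey, with a point for each mouse and a black line at the mean of 5 mice. On the minus strand mt-Tn is the highest, at 184 CPM in AHRfl and 227 CPM in AHRmko mice, and on the plus strand mt-Tl1, at 86.4 and 111 CPM.

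No mtDNA gene passed the threshold between the genotypes. Of the 35 genes, 32 passed the filter on low counts, 13 protein and 19 tRNA genes, and edgeR, with adjustment over 14714 genes, called 0 of them at an adjusted p of 0.05 (background 0.0068% of all genes tested). At an unadjusted p under 0.05 there was 1 of 32 with edgeR (background 6.61%) and 0 with limma-voom (background 6.94%). Both backgrounds are over 14714 genes. With DESeq2 there was 1 (background 3.62%), over the 31833 genes with at least 1 count to which it gave a p. Of the 32, 0 had genotypes that did not overlap (background 1.4%). DESeq2 also called 0 of the mtDNA genes to which it gave an adjusted p (background 0.193% of 10858 genes), as did limma-voom (background 0.0068%). The log2 fold change, AHRmko minus AHRfl, was above 0 in 18 genes and below 0 in 14 (background 51.5% above 0). Its median over the 13 protein genes was 0.02, beside 0.0056 over all genes tested. It was -0.012 over the 7 protein genes outside or partly inside the copied span. Over the 6 inside it, which rest on few counts, it was 0.081.

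In complex I, 4 of the 7 genes had a log2 fold change above 0 and 3 below, and none passed the test. The largest was that of mt-Nd4l, with 9.77, 4.47, 10.2, 9.12 and 10.4 CPM in AHRfl mice 11, 12, 13, 15 and 33 and 17.2, 9.87, 10.98, 10.7 and 7.29 CPM in AHRmko mice 8, 9, 19, 22 and 34. AHRfl mouse 12 and AHRmko mouse 34 were low and AHRmko mouse 8 was high, and the genotypes overlapped. The log2 fold change was 0.35 (SE 0.26, 95% interval -0.22 to 0.92, edgeR adjusted p = 0.845, two-sided exact permutation p = 0.31), and it was 0.14 without AHRmko mouse 8 and 0.47 without AHRmko mouse 34, and 0.20 after adjustment for the mean log2 CPM of the slow-fibre genes described below. The most abundant per length, mt-Nd1 (ENSMUSG00000064341), had 18328, 15544, 18413, 18846 and 18862 CPM in AHRfl and 18287, 18272, 18379, 17851 and 16446 CPM in AHRmko mice. Its values differed little between mice except for the low AHRfl mouse 12 and AHRmko mouse 34. The fitted log2 fold change was -0.01 (SE 0.08, interval -0.19 to 0.16, edgeR adjusted p = 0.992, exact permutation p = 0.786).

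The only protein gene of the minus strand, mt-Nd6 (ENSMUSG00000064368), had 3207, 2707, 3105, 3036 and 3382 CPM in AHRfl and 2974, 2969, 3047, 2771 and 2505 CPM in AHRmko mice. AHRmko mouse 34 was the lowest and the genotypes overlapped. Its log2 fold change of -0.11 (SE 0.08, interval -0.29 to 0.06, edgeR adjusted p = 0.84, exact permutation p = 0.167) had the smallest unadjusted p of the protein genes, 0.192. It took 3.16 ± 0.267% of the mtDNA counts in AHRfl and 2.86 ± 0.124% in AHRmko muscle (SD, n = 5 each), and these ranges also overlapped. For mt-Nd2, mt-Nd3, mt-Nd4 and mt-Nd5 the log2 fold changes were 0.02, 0.08, -0.06 and 0.16. Without AHRfl mouse 12 that of mt-Nd5 was 0.03 and that of mt-Nd4 -0.13, and without AHRmko mouse 34 that of mt-Nd4 was -0.02 and that of mt-Nd6 -0.07.

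In complex III, mt-Cytb (ENSMUSG00000064370) had 17529, 12955, 16947, 18705 and 17555 CPM in AHRfl and 18211, 16610, 17067, 16018 and 14228 CPM in AHRmko mice, with AHRfl mouse 12 and AHRmko mouse 34 below the rest. Its log2 fold change was -0.03 (SE 0.11, 95% interval -0.26 to 0.20, edgeR adjusted p = 0.98, exact permutation p = 0.849). In complex IV, mt-Co1 had 35156, 26532, 35665, 39606 and 35599 CPM in AHRfl and 40767, 38994, 35823, 34876 and 30855 CPM in AHRmko mice, and the same 2 mice were the lowest. Its log2 fold change was 0.07 (SE 0.12, interval -0.18 to 0.32, edgeR adjusted p = 0.945, exact permutation p = 0.579). The largest of complex IV was that of mt-Co3, with 14.2, 10.8, 15.3, 15.03 and 15.1 CPM in AHRfl and 18.0, 16.0, 13.7, 14.3 and 12.5 CPM in AHRmko mice. The genotypes overlapped, with a log2 fold change of 0.08 (SE 0.12, interval -0.17 to 0.33, edgeR adjusted p = 0.935, exact permutation p = 0.587). For mt-Co2 it was -0.07.

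In complex V, mt-Atp8 (ENSMUSG00000064356), a small membrane subunit, had 3.92, 2.42, 3.33, 4.69 and 3.37 CPM in AHRfl and 4.80, 4.15, 3.91, 4.28 and 3.17 CPM in AHRmko mice. The ranges overlapped, and AHRfl mouse 12 was the lowest. A log2 fold change of 0.20 was fitted (SE 0.17, 95% interval -0.18 to 0.57, edgeR adjusted p = 0.879, exact permutation p = 0.286), while mt-Atp6 stood at -0.01 (interval -0.30 to 0.28). The value for mt-Atp8 was 0.09 without AHRfl mouse 12, 0.32 without AHRfl mouse 15, 0.13 without AHRmko mouse 8 and 0.11 after the same adjustment for slow-fibre genes. Both genes rest on at most 413 counts in a mouse. For the 5 genes outside the copied span and the 2 partly inside it, the intervals together ran from -0.29 to 0.54, the upper end from mt-Nd5, and a log2 fold change of 1 lay outside each of them.

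Among the tRNA genes, mt-Te was the 1 gene with an unadjusted p under 0.05. It had 57.6, 49.2, 62.6, 58.7 and 70.2 CPM in AHRfl mice 11, 12, 13, 15 and 33, and 49.4, 50.9, 48.9, 52.4 and 58.7 CPM in AHRmko mice 8, 9, 19, 22 and 34. The lowest value was that of AHRmko mouse 19, 4 of the 5 AHRmko mice were below all AHRfl mice but mouse 12, AHRmko mouse 34 was close to AHRfl mouse 15, and the genotypes overlapped. The log2 fold change was -0.20 (SE 0.09, 95% interval -0.39 to -0.01, unadjusted p = 0.0444, edgeR adjusted p = 0.738, two-sided exact permutation p = 0.111). For mt-Tn it was 0.30 (SE 0.15, edgeR adjusted p = 0.776), for mt-Tl1 0.37 (SE 0.23, edgeR adjusted p = 0.82) and for mt-Tp -0.24 (SE 0.16, edgeR adjusted p = 0.819), and these ranges overlapped as well. For mt-Tl1 it was 0.19 without AHRmko mouse 8, and for mt-Tp it was -0.11 without AHRfl mouse 15. With 1 mouse left out, that of mt-Te ran from -0.26 without AHRfl mouse 12 to -0.13 without AHRfl mouse 33. Of the 19 tRNA genes, 11 had a log2 fold change above 0 and 8 below, with a median of 0.03.

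**Figure D5:**
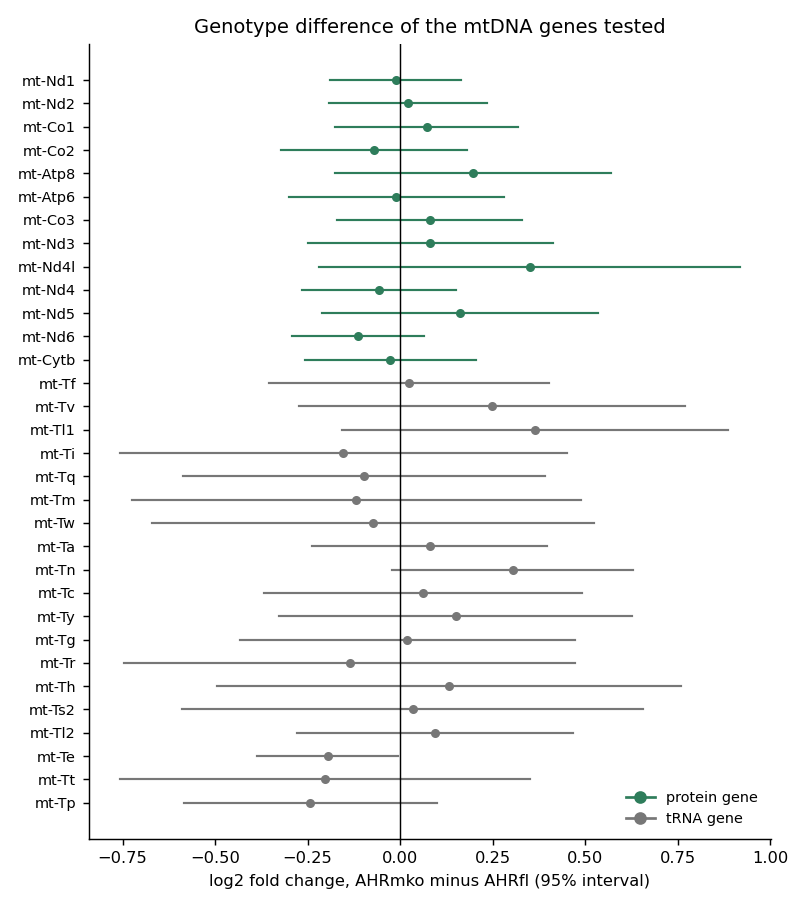
The log2 fold change, AHRmko minus AHRfl (horizontal axis), is plotted for the 32 mtDNA genes tested, as a point with its 95% interval from edgeR, protein genes in green and tRNA genes in grey. All intervals cross 0 except that of mt-Te, which ends at -0.01.

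A few mice stood apart in most of the protein genes. By CPM, AHRfl mouse 12 was the lowest of the 10 mice in 12 of the 13 protein genes, the exception being mt-Nd6, and AHRmko mouse 8 was the highest in 6. Leaving out AHRfl mouse 12 moved the difference in the mtDNA share from 0.0432 to -0.603 percentage points, and leaving out AHRmko mouse 34 moved it to 0.448. Within the 5 mice with Xist counts the difference was -0.715 percentage points and within the other 5 it was 1.32, so its sign was not the same in both sets. In a fit with the Xist set as a covariate, edgeR called 0 mtDNA genes, and the median log2 fold change of the 13 protein genes was 0.06. The largest spread among the protein genes with many counts was that of mt-Nd5 (coefficient of variation over the 10 mice 20.2%, against 6.01% for mt-Nd1). Its 10 values ran from 4404 CPM in AHRfl mouse 12 to 9711 CPM in AHRmko mouse 8, a ratio of 2.20. The ratio was 1.21 for mt-Nd1 and 1.35 for mt-Nd6.

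The same mice differed in markers of slow, oxidative fibres, a set of 6 transcripts (Myh7, Tnnt1, Tnni1, Tnnc1, Myl2 and Myl3). Their summed level ran from 21.1 CPM in AHRfl mouse 12 to 1449 CPM in AHRfl mouse 15, and from 151 CPM in AHRmko mouse 9 to 1666 CPM in AHRmko mouse 8. In a comparison added after the values were seen, the mean log2 CPM of these markers and the log2 CPM of each protein gene had, across the 10 mice, a Pearson r between 0.245 (mt-Nd6) and 0.761 (mt-Nd2), and a Spearman rho between 0.103 and 0.709. Of the 13 relations, none had a permutation p of r under 0.05 after Benjamini-Hochberg adjustment (0.0732 to 0.496), and 5 had one before it. Without the 2 mice farthest from the median, AHRfl mouse 12 and AHRmko mouse 8, r was between -0.191 and 0.49, over the 8 mice that remain and a narrower range of the markers. With the markers as a covariate, 0 mtDNA genes had an adjusted p under 0.05. The part of fibre type in the mtDNA levels was not tested further.

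The nuclear genes that work with the mtDNA products did not pass the test either. Of 81 nuclear genes for OXPHOS subunits, all tested, 77 had a log2 fold change below 0 and 4 above (background 48.5% below 0), 7 reached an unadjusted p of 0.05 with edgeR, each lower in AHRmko (background 6.61% in either direction and 3.38% lower), and none reached an adjusted p of 0.05. Their median log2 fold change was -0.09. By complex, 35 of 36 genes were below 0 in complex I, 3 of 4 in complex II, which has no mtDNA gene, 8 of 9 in complex III, 14 of 14 in complex IV and 17 of 18 in complex V, with medians of -0.09, -0.06, -0.10, -0.11 and -0.09. The mtDNA genes had medians of 0.02 in complex I, -0.03 in complex III (mt-Cytb alone), 0.07 in complex IV and 0.09 in complex V, and the difference between nuclear and mtDNA subunits was not tested. Both mtDNA genes of complex V lie wholly inside the copied span and had small counts. The same holds for mt-Co2 and mt-Co3 of complex IV and for mt-Nd3 and mt-Nd4l of complex I. The median of complex V thus rests on such rows alone, and that of complex IV was the value of mt-Co1. Cox5a, a nuclear subunit of complex IV, had the smallest p of the 81, with 350 ± 23.7 CPM in AHRfl and 299 ± 23.6 CPM in AHRmko muscle (SD, n = 5 each) and a log2 fold change of -0.23 (SE 0.07, edgeR adjusted p = 0.627, exact permutation p = 0.0159). Next in complex IV was Cox7a1 at -0.18. In complex I the smallest p was that of Ndufa2 (-0.18). The smallest p in complex II were those of Sdhc (-0.12) and Sdhd (-0.06), in complex III of Uqcrfs1 (-0.20) and Uqcrq (-0.19), and in complex V of Atp5l (-0.14) and Usmg5 (-0.14), none with an adjusted p under 0.05.

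The factors that copy, transcribe and process mtDNA are nuclear as well, and 57 of them were tested. Of these, 26 had a log2 fold change above 0 and 31 below, none reached an unadjusted p of 0.05 with edgeR (background 6.61%), 0 an adjusted p under 0.05 by edgeR, limma-voom or DESeq2, and the median was -0.01. Among the transcription factors the smallest p were those of Tfb2m, which opens mtDNA promoters (0.10), and Tfb1m, an rRNA methyltransferase (0.13). Among those of RNA processing they were Nsun2, an RNA methyltransferase (-0.14), and Grsf1, a protein of mitochondrial RNA granules (-0.10). For RNA stability they were Mtpap, the mitochondrial poly(A) polymerase (0.09), and Angel2 (-0.05), and for replication Tk2, the mitochondrial thymidine kinase (-0.29), and Rnaseh1 (-0.21). The values in parentheses are log2 fold changes, AHRmko minus AHRfl. The two-sided exact permutation p, without adjustment, was 0.0397 for Grsf1 and for Rnaseh1. It was above 0.05 for the other factors named here.

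The libraries carried muscle RNA throughout, with the summed level of Acta1, Ckm, Mylpf and Tnnt3 between 72554 and 98154 CPM, and the liver marker Alb at no more than 10 counts. Of the 2 cardiac markers Nppa had at most 9 counts, while Myh6 had between 2 and 179, with 138 in AHRfl mouse 15 and 179 in AHRmko mouse 8. The summed level of the adipocyte markers ran from 97.8 to 177 CPM over the 10 mice, that of the macrophage markers from 7.94 to 23.1, of the endothelial markers from 91.5 to 186, of the Schwann cell markers from 25.6 to 80.4 and of the erythroid markers from 85.7 to 423 CPM. The genotypes overlapped in each of these, and their part in the mtDNA levels was not tested. Most of the adipocyte sum was Fabp4, at 95.6 to 174 CPM, whereas Adipoq ran from 0.80 to 7.32 CPM. Ahr itself, the deleted gene, had 2.02 ± 0.681 CPM in AHRfl and 1.58 ± 0.443 CPM in AHRmko muscle (SD, n = 5 each), and its log2 fold change of -0.35 (edgeR adjusted p = 0.844, exact permutation p = 0.294) did not separate the genotypes. The counts take in all exons of the gene and all cells of the tissue, so they do not check the genotype of the fibres.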

How the data were processed

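RNA of 10 gastrocnemius muscles was sequenced as paired-end reads of 150 bases after poly(A) selection. After trimming (Trimmomatic 0.36) and mapping to GRCm38 (STAR 2.5.2b), the authors counted unique reads on exons with featureCounts and deposited raw counts per gene, 1 column per mouse. Whether counting used strand is stated only conditionally, and whether reads touching 2 genes were dropped is not given in the sources used here. GENCODE M21 of GRCm38 holds 49056 of the 49315 identifiers. No 2 libraries held identical counts.

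The genotypes were compared in R 4.3.3 by edgeR 4.0.16 (filterByExpr at its minimum of 10 counts and total of 15, TMM, quasi-likelihood test with robust estimation, Benjamini-Hochberg adjustment over 14714 genes), and single genes by two-sided exact permutation tests of log2 CPM (prior count 2) over 252 assignments, with a smallest p of 0.00794. Copies were sought with BLAST 2.17.0. Alternatives were DESeq2 1.42.0, limma-voom (limma 3.58.1), other scalings and filters, a slow-fibre covariate, an Xist covariate (10 counts or more, added after the values were seen) and leaving out each mouse. Values per mouse are given for mt-Nd6, mt-Cytb, the mtDNA gene with the largest change and with the highest level of each other complex, members with an unadjusted p under 0.05 and the 4 tRNA genes with the most counts, and also for mt-Co2 and mt-Nd3, which were added after their values were seen. Each nuclear list is named by the 2 genes with the smallest p, of which 1 is not reported here. The members and lists were chosen with earlier results of these data known. Reads carry no molecular identifiers.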

Additional observations from a re-analysis of the deposited data

Results flagged for a closer look

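Within each genotype of 5 mice, the gap of the lowest or highest mouse to its nearest neighbour was compared with the range of the group (on log2 CPM), and 9 of the 66 groups had a value above 0.71, the 95% critical value for 5 samples. Chance passes about 1 group in 20, or 3.3 of 66, and the genes are not independent, since they come from the same mice. In 8 of the 9, AHRfl mouse 12 was the low mouse. Its gap took 0.852 of the AHRfl range for mt-Nd1, 0.843 for mt-Nd4l, 0.81 for mt-Nd4, 0.781 for mt-Co3, 0.766 for mt-Nd5, 0.765 for mt-Nd3, 0.734 for mt-Tm and 0.731 for mt-Cytb. The ninth was AHRmko mouse 34, which was low in mt-Nd1, with a gap of 0.738 of the AHRmko range. AHRfl mouse 12 also had the lowest summed level of the slow-fibre markers (21.1 CPM) and the highest of Acta1, Ckm, Mylpf and Tnnt3 (98154 CPM), and the part of these in its mtDNA levels was not tested.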

How the results depend on the processing

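The number of mtDNA genes called was 0 in all 10 alternative fits and in all 10 fits that left out a mouse, and 0 of the 340 values of the 17 named genes crossed the threshold (lowest adjusted p 0.575). The number with an unadjusted p under 0.05 was 0 with limma-voom and with the Xist set as a covariate, a fit added after the data were seen, between 0 and 2 with a mouse left out and 1 otherwise. The number of all genes called was 1, but 21 with DESeq2, 5 with no filter beyond 1 count, 2 with the slow-fibre covariate, and from 1 to 6 when 1 mouse was dropped, the 6 without AHRmko mouse 34. The causes were not tested. Direction changed in 21 of the 340 values. Of these, 7 came from other settings: the log2 fold change of mt-Nd2 was -0.0012 by library size only and -0.0251 with the slow-fibre covariate, that of mt-Nd3 was -0.0036 with that covariate, that of mt-Atp6 was 0.0118 with limma-voom, and with the Xist covariate those of mt-Nd1, mt-Atp6 and mt-Cytb were 0.00596, 0.0573 and 0.00306. Among genes that kept their direction, the slow-fibre covariate moved mt-Nd1 to -0.04, mt-Co1 to 0.03, mt-Co2 to -0.11, mt-Atp6 to -0.05, mt-Co3 to 0.03, mt-Nd4 to -0.09 and mt-Cytb to -0.08, and the Xist covariate moved mt-Nd2 to 0.05, mt-Co2 to -0.02, mt-Nd4 to -0.04 and mt-Tp to -0.16. With a mouse left out the value ran from -0.0615 to 0.0157 for mt-Nd1, -0.0541 to 0.0634 for mt-Nd2, -0.0108 to 0.126 for mt-Co1, -0.149 to 0.0146 for mt-Co2, -0.119 to 0.055 for mt-Atp6, -0.00248 to 0.137 for mt-Co3, -0.0665 to 0.17 for mt-Nd3 and -0.108 to 0.0202 for mt-Cytb. With a mouse left out, the median over the mtDNA protein genes ran from -0.05 to 0.06, and the difference in library share from -0.603 to 0.448 percentage points. Over the nuclear factors that copy, transcribe and process mtDNA, the median ran from -0.025 to 0.0052 in the same fits. In the other settings it ran from -0.028 to 0.0026. Over the nuclear OXPHOS subunits the median ran from -0.133 to -0.067 with a mouse left out and from -0.112 to -0.09 in the other settings. At an identity of 95% in place of 90%, 11 of the 16 nuclear copies remained. The 6 protein genes inside the copied span rest on at most 2381 counts in a mouse, which limits what their rows can show. They had at most 12 windows of 150 bases that touch no other mtDNA gene and occur in no nuclear transcript. The part of shared sequence in their low counts was not tested. No paired analysis was possible because the labels used here name no litter, so littermates could not be matched. An effect of litter was not tested.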
